A study of Mus musculus with 6 samples.

Results

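The 10 genes described here encode C-type lectin receptors of myeloid cells: Clec7a, Clec10a, Clec12a, Clec4a1, Clec4a2, Clec4a3, Clec4n, Cd209a, Cd209d and Cd209f. They were chosen by symbol, and all 10 were found among the 26110 genes of the deposited table. Bulk RNA was sequenced from MHCIIhiCX3CR1- and MHCIIhiCX3CR1+ cells, 3 libraries of each, which had been sorted from the muscularis externa (ME), the outer muscle coat, of the small bowel. All mice were naive and carried the CX3CR1+/GFP genotype, in which GFP replaces one allele of the chemokine receptor gene Cx3cr1 and reports its promoter, so that both populations have a single intact allele. According to the methods, the mice were female, on a C57BL/6 background, and the ME of several mice was pooled for a sort. Their age is not given in the sources used here. No source says that each library had its own pool, so that the p-values measure the spread between libraries, which may be technical.

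Judged by the smallest steps in its values, a library held about 5346381 to 17616761 reads, and 3 reads were worth 1.39 to 5.36 on the normalized scale. Cx3cr1 was at 18.9 to 28.5 in CX3CR1- libraries, against 347 to 380.4 in CX3CR1+ libraries. The labels name both populations as dendritic cells, whereas the study describes macrophages. It based this on protein, with the macrophage marker IBA-1 stained in all MHCII+ cells, on their location, and also on RNA. From these libraries the study reported higher levels of markers of the monocyte-macrophage lineage, such as Ear2, in CX3CR1- cells. The study also reported higher transcripts of dendritic cell markers in them, among these Flt3. By its flow cytometry most CX3CR1- cells carried CD11b and very few carried CD11c or CD103. The study judged the admixture of dendritic cells to be very low and probably negligible. All 13 macrophage markers were lower in CX3CR1- cells, with sums of 8818 to 9861 against 42499.6 to 47566. Of 8 markers shared by conventional dendritic cells, 7 were higher and Cd83 was lower, and Flt3 was at 164 to 237 against only 18.7 to 19.5 in CX3CR1+ libraries. Cd83 carried most of the sum of these 8 markers, which was 5609 to 7243 against 13192 to 16897. By the rule given below, 12.2% of all genes tested were called higher in CX3CR1- cells and 8.15% lower. Mitochondrial transcripts made up 51.7 ± 3.76% of the normalized total in CX3CR1- libraries, against 19.6 ± 1.55% (SD, n = 3 each). The part of this difference in the results for the lectin genes was not tested.

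C-type lectin receptors bind carbohydrates, and some of them other ligands, on microbes and on host cells. Activating members, such as Dectin-1 (Clec7a) and Dectin-2 (Clec4n), signal through the kinase Syk and the adaptor Card9, Dectin-1 with its own tail and Dectin-2 through the Fc receptor gamma chain (Fcer1g). Inhibitory members, such as Clec12a and DCIR (Clec4a2), recruit phosphatases. Receptors of the DC-SIGN group (the Cd209 genes) and the macrophage galactose-type lectin Clec10a take up glycosylated antigens.

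The 10 genes fell into 2 sets with opposite directions. Values of the 3 Cd209 genes and Clec10a were higher in CX3CR1- cells, and those of Clec7a, Clec12a, Clec4n and the 3 Clec4a genes were lower there. A gene was called where log2(value + 1) differed by 1 or more and the p-value of limma, after Benjamini-Hochberg adjustment over 17812 genes, was 0.05 or less. By this rule 6 of the 10 genes were called, against 20.4% of all genes tested, of which 4 were higher and 2 lower in CX3CR1- cells, against 12.2% and 8.15% of all genes. The other 4 had log2 fold changes between -0.99 and -0.78. Regardless of the fold, 9 of the 10 genes had an adjusted p of 0.05 or less (24.3% of all genes), 4 of them higher (13.3%) and 5 lower (11.0%). The median log2 fold change was -0.83 over the 10 genes and -0.00349 over all genes tested. For all 10 genes the libraries of the 2 populations did not overlap, which held for 40.0% of all genes. This applied to 4 genes higher in CX3CR1- cells and 6 lower, against 20.3% and 19.8% of all genes. An exact two-sided permutation test gave p = 0.1 for each gene, the smallest value that 3 libraries against 3 allow. In bulk RNA, fewer cells that express a gene cannot be told apart from less RNA per cell.

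**Figure D1:**
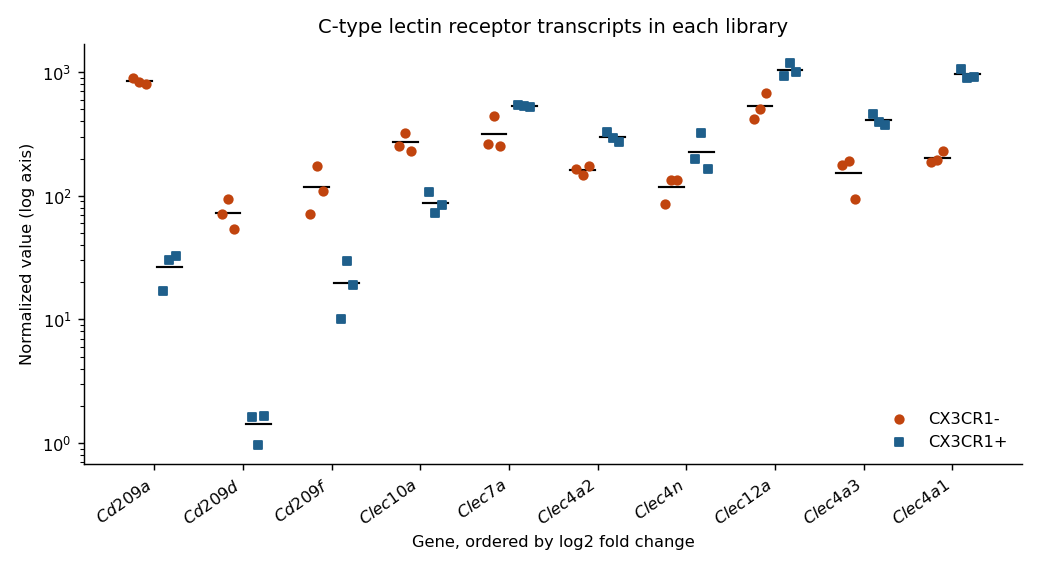
Normalized value (log axis) of each of the 10 genes in every library, ordered by log2 fold change, with circles for CX3CR1- and squares for CX3CR1+ libraries and a bar at the mean of 3 libraries. Cd209a, Cd209d, Cd209f and Clec10a have all circles above all squares, and the 6 other genes have all squares above all circles.

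Cd209a, the mouse gene named DC-SIGN after its human counterpart, was far higher in CX3CR1- libraries. Its normalized values were 898, 826 and 803 in CX3CR1- libraries and 16.9, 30.2 and 32.5 in CX3CR1+ libraries. The lowest CX3CR1- library was thus 24.7-fold above the highest CX3CR1+ library. The means were 842 ± 49.5 against 26.5 ± 8.44 (SD, n = 3 each), a 31.8-fold difference (log2 fold change 4.99, standard error 0.28, limma adjusted p = 3.75e-06).

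Cd209d encodes SIGN-R3. Its values were 70.8, 94.1 and 53.6 in CX3CR1- libraries and 1.62, 0.959 and 1.66 in CX3CR1+ libraries. The latter stand for about 3.51, 1.17 and 1.17 reads, so that the gene was close to the limit of 3 reads or under it in all 3 CX3CR1+ libraries. The difference passed the test (log2 fold change 4.91, standard error 0.54, limma adjusted p = 1.20e-04), but its fitted size depends on the pseudocount and was 2.83 with a pseudocount of 10. From about 174 reads against 6, pooled over 3 libraries each, Cd209d was 47.03-fold higher in CX3CR1- cells, with an exact binomial 95% interval from 21.2 to 129.9 that covers counting error only.

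Cd209f, another DC-SIGN-related gene, had values of 71.6, 174 and 108 in CX3CR1- libraries and 10.02, 29.6 and 19.03 in CX3CR1+ libraries. The CX3CR1- libraries spread more for this gene than for Cd209a, with CX3CR1- replicate 2 the highest. The difference was 6.05-fold by the means and passed the test (log2 fold change 2.56, standard error 0.47, limma adjusted p = 0.00283). Of the 31-mers in the Cd209f transcripts, 36.3% also occur in its paralog Cd209g, so that the division of reads between these genes is uncertain. Cd209a and Cd209d share no 31-mer with another gene.

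Clec10a, also called MGL1, encodes a macrophage galactose-type lectin. Its values were 255, 324 and 231 in CX3CR1- libraries and 107, 72.4 and 84.4 in CX3CR1+ libraries. All 6 libraries held Clec10a far above 3 reads, and the difference was 3.07-fold by the means (log2 fold change 1.61, standard error 0.26, limma adjusted p = 0.00124). Its neighbour and paralog Mgl2, in which 13.7% of the 31-mers of Clec10a occur, did not pass the test. Mgl2 was at 1776, 1359 and 1484 in CX3CR1- libraries and at 1398, 1249 and 1173 in CX3CR1+ libraries, so that the populations overlapped (log2 fold change 0.27, standard error 0.16, limma adjusted p = 0.28).

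Among the genes with lower values in CX3CR1- cells, Clec4a1 (DCIR4) differed most. It was at 188, 193 and 229 in CX3CR1- libraries and at 1060.1, 902 and 911 in CX3CR1+ libraries, 4.71-fold higher by the means (log2 fold change -2.23, standard error 0.19, limma adjusted p = 2.28e-05). It shares no 31-mer with another gene. Clec4a3 (DCIR3) was at 176, 189.8 and 94.4 in CX3CR1- libraries and at 456, 396 and 371 in CX3CR1+ libraries (log2 fold change -1.46, standard error 0.28, limma adjusted p = 0.00397), with CX3CR1- replicate 3 well below the other two. Clec4a1 and Clec4a3 were the 2 genes called lower.

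Clec4a2, the inhibitory receptor DCIR, was at 165, 148 and 173 in CX3CR1- libraries and at 330.1, 292 and 274 in CX3CR1+ libraries. Its difference (log2 fold change -0.88, standard error 0.21, limma adjusted p = 0.0117) was under the fold threshold. The limma adjusted p was 0.0642 without CX3CR1+ replicate 1 and 0.0506 without CX3CR1+ replicate 2. Of its 31-mers, 10.9% occur in other genes.

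Clec12a, an inhibitory receptor that senses uric acid crystals, was at 417, 501 and 675 in CX3CR1- libraries and at 927, 1183 and 1003 in CX3CR1+ libraries. Its difference (log2 fold change -0.99, standard error 0.21, limma adjusted p = 0.006903) lay just under the fold threshold. The gene was called lower when CX3CR1- replicate 3, CX3CR1+ replicate 1 or CX3CR1+ replicate 3 was left out, with log2 fold changes of -1.17, -1.06 and -1.01. After quantile normalization its limma adjusted p was 0.0529.

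Clec7a encodes Dectin-1, the receptor for fungal beta-glucans. It was at 262, 444 and 251 in CX3CR1- libraries and at 538, 531 and 521 in CX3CR1+ libraries. The CX3CR1+ libraries lay within a narrow range, whereas CX3CR1- replicate 2 was well above the other CX3CR1- libraries. The difference (log2 fold change -0.78, standard error 0.24, limma adjusted p = 0.0388) was under the fold threshold. Without CX3CR1- replicate 2 the log2 fold change was -1.04 with a limma adjusted p of 0.00369, so that the gene was called lower. With any other library left out, the limma adjusted p was between 0.1001 and 0.114.

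Clec4n encodes Dectin-2, a receptor for mannans. It was at 85.7, 135 and 135 in CX3CR1- libraries and at 199, 319 and 166 in CX3CR1+ libraries. CX3CR1+ replicate 2 was the highest, and the gap between the populations was small. The difference (log2 fold change -0.91, standard error 0.31, limma adjusted p = 0.057) did not pass the test. Without CX3CR1+ replicate 2 the log2 fold change was -0.64, with a limma adjusted p of 0.242.

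To compare levels between the genes, the normalized values were divided by the length of the longest GENCODE transcript (mean ± SD per kb, n = 3 libraries). In CX3CR1- cells, Cd209a led at 568 ± 33.4 per kb, with no overlap with the next gene, Clec12a, at 164 ± 40.6 per kb. From Clec12a through Clec7a, Clec4a1 and Clec4a3 to Clec10a, each gene overlapped with the next in the order of the levels per kb. The same held from Clec4n through Cd209d and Cd209f to Clec4a2, which was the lowest at 65.2 ± 5.204 per kb. The order and the shares below depend on the length used, and no other length was tried. Clec4a2 has 5 annotated transcripts, the longest of 2.481 kb. Before the division its mean was 162, above those of Clec4n, Cd209f and Cd209d at 119, 118 and 72.8. The order was another one in CX3CR1+ cells, where Clec4a1 led at 615 ± 56.97 per kb. It was followed by Clec12a at 321 ± 40.8 and Clec4a3 at 314 ± 33.6 per kb, which overlapped. Clec7a came next at 233 ± 3.75 per kb, overlapping with neither neighbour, and was followed by Clec4n and Clec4a2, which overlapped. Clec10a, Cd209a, Cd209f and Cd209d were the last 4, from 37.8 ± 7.59 down to 1.54 ± 0.428 per kb, and of these only Cd209a and Cd209f overlapped.

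The sum over the 10 genes per kb was 1543 ± 126 in CX3CR1- cells, against 1835 ± 108 in CX3CR1+ cells (SD, n = 3 each), and the libraries did not overlap in it. The 3 Cd209 genes took 45.5 to 49.8% of this sum in CX3CR1- libraries, against 1.04 to 2.14% in CX3CR1+ libraries. The 4 Clec4 genes took 25.2 to 26.2% against 64.3 to 68.9%. Clec7a and Clec12a together took 16.7 to 21.6% against 27.6 to 31.5%.

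**Figure D2:**
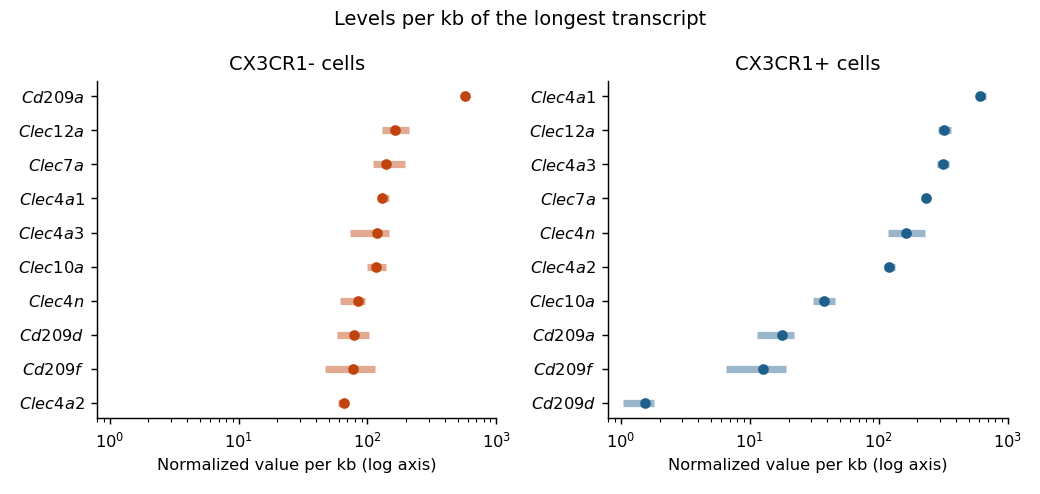
Normalized value per kb of the longest transcript (log axis) for the 10 genes in CX3CR1- and CX3CR1+ cells, each ordered by its mean, with points for the means and bars from the lowest to the highest of 3 libraries. Cd209a is first in CX3CR1- cells and far down the order in CX3CR1+ cells, where Clec4a1 is first.

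The 10 genes lie in 4 clusters of lectin genes in the mouse genome (GRCm38, GENCODE release M21). Clec4a1 (chr6:122921848-122934619), Clec4a3 (chr6:122952515-122969875), Clec4a2 (chr6:123106428-123143999) and Clec4n (chr6:123229843-123247021) lie on the plus strand within a stretch of 368 kb that ends with Clec4e. Clec12a (chr6:129342691-129365303, plus strand) and Clec7a (chr6:129461591-129472779, minus strand) lie at the ends of a second stretch of 130.1 kb on the same chromosome. Cd209a (chr8:3743397-3748984), Cd209d (chr8:3871824-3878555) and Cd209f (chr8:4102787-4105835) lie on the minus strand within 394 kb. Clec10a (chr11:70156197-70170834, plus strand) lies next to Mgl2.

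Of the 7 Cd209 genes on chromosome 8, the 6 that were tested were all called higher in CX3CR1- cells, against 12.2% of all genes. They were also called higher under every alternative in which they were tested. Beside the 3 genes above these were Cd209b, Cd209c and Cd209g. Cd209b, the gene of SIGN-R1, was at 60.7, 76.1 and 55.03 in CX3CR1- libraries and at 2.78, 0 and 0 in CX3CR1+ libraries. Cd209c was at 336, 238 and 209 in CX3CR1- libraries and at 72.9, 78.9 and 49.2 in CX3CR1+ libraries, and Cd209g was at 101, 46.1 and 43.3 against 0.556, 8.34 and 3.405. Of the 31-mers of Cd209g, 20.1% occur in Cd209f, and 24.7% of those of Cd209c occur in other genes. Cd209e was too low to be tested, with no library above 5.36. Cd209b, Cd209d and Cd209g had means of 64.0, 72.8 and 63.6 in CX3CR1- libraries and of 0.93, 1.41 and 4.10 in CX3CR1+ libraries. They thus passed the lower limit for the mean over all libraries only through their CX3CR1- values. Genes that enter the test in this way can hardly be called lower. With no such limit, 6 of 7 Cd209 genes were called higher, and with a limit of 50, 3 of 3.

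The clusters on chromosome 6 held genes of both directions. In the Clec4 cluster, Clec4a1 and Clec4a3 were called lower, whereas Clec4b1, an activating receptor gene that lies between Clec4a4 and Clec4a2, was called higher in CX3CR1- cells. Clec4b1 was at 161, 266 and 188 in CX3CR1- libraries and at 49.8, 78.7 and 57.6 in CX3CR1+ libraries (log2 fold change 1.70, standard error 0.30, limma adjusted p = 0.00213), and 18.3% of its 31-mers occur in Clec4a2. Clec4d and Clec4e, which encode MCL and the glycolipid receptor Mincle, did not pass the test, with log2 fold changes of -0.93 (limma adjusted p = 0.155) and 0.18 (limma adjusted p = 0.808). Without CX3CR1- replicate 2, Clec4d was called lower (log2 fold change -1.31, limma adjusted p = 0.0395). In the Dectin-1 cluster, Clec9a and Clec1a, between Clec12a and Clec7a, were called higher. Clec9a, which marks type 1 conventional dendritic cells and recognises actin exposed by dead cells, was at 894, 1193 and 956 in CX3CR1- libraries and at 70.1, 35.4 and 58.1 in CX3CR1+ libraries (log2 fold change 4.24, standard error 0.28, limma adjusted p = 6.59e-06). It overlaps with Clec1b, which holds 4.63% of its 31-mers.

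**Figure D3:**
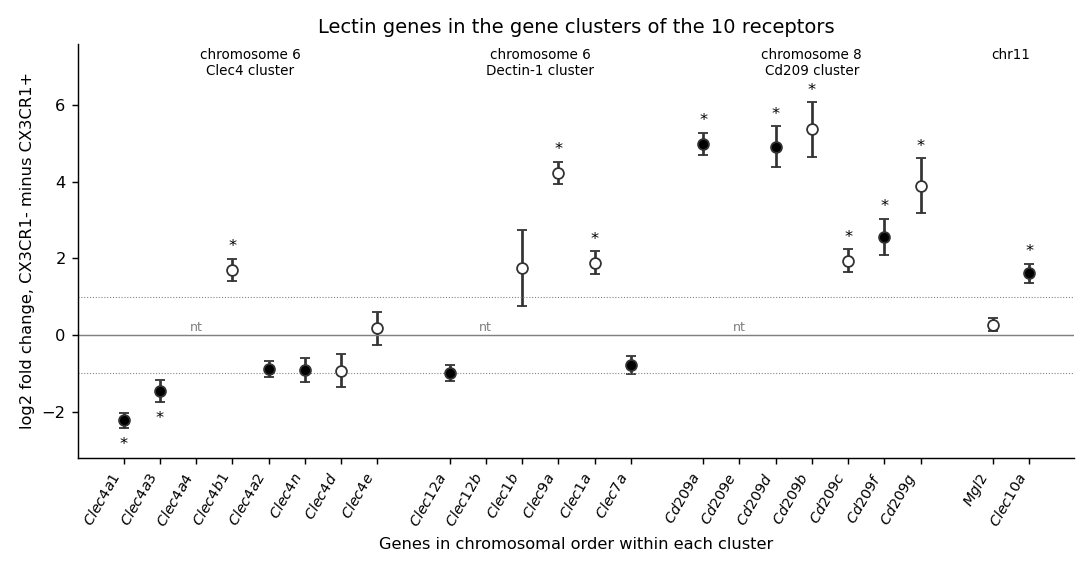
Log2 fold change between CX3CR1- and CX3CR1+ cells with its standard error for the lectin genes in the 4 clusters, in chromosomal order, with filled points for the 10 genes, open points for their neighbours, asterisks for called genes, dotted lines at 1 and -1 and nt for genes too low to be tested. All tested Cd209 genes lie above 1, and genes of both directions lie side by side on chromosome 6.

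Ratios between related genes within a library were compared in 8 pairs, for which an exact two-sided permutation test cannot go below p = 0.1 (adjusted over the 8 pairs 0.16). The log2 ratio of Clec4a2 to Clec4a1 was -0.33 ± 0.12 in CX3CR1- cells, against -1.68 ± 0.053 (SD, n = 3 each, exact permutation p = 0.1). The excess of Clec4a1 over Clec4a2 was thus larger in every CX3CR1+ library. The log2 ratio of Clec10a to Mgl2 was -2.51 ± 0.39 in CX3CR1- cells, against -3.85 ± 0.21 (SD, n = 3 each, exact permutation p = 0.1), again with no overlap. The ratios of Cd209a and Cd209d to Cd209f and that of Clec4a2 to Clec4a3 also did not overlap. The difference in the ratio of Cd209d to Cd209f was 2.35, but 0.74 with a pseudocount of 10. That of Clec4a2 to Clec4a3 was 0.58, but 0.22 without CX3CR1- replicate 3. The ratios of Cd209a to Cd209d, of Clec4a1 to Clec4a3 and of Clec7a to Clec12a overlapped between the populations, with differences of 0.075, -0.77 and 0.20 on the log2 scale (exact permutation p = 0.9, 0.3 and 0.6).

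Promoter windows from RefSeq (GRCm38.p6, 250 bases before to 50 after a start) were found for 8 of the 10 genes, and Clec10a and Clec4n had no entry. Short motifs of myeloid and general factors were searched on both strands, GAGGAA for PU.1, TGANTCA for AP-1, TTGCNNAA for C/EBP and TGTGGT for RUNX. To these were added the ETS-IRF composite element, searched as GGAA and GAAA with 2 bases between them, and the interferon-stimulated response element, searched as GAAA and GAAA with 2 bases between them. The composite element combines an ETS site, as bound by PU.1, with an IRF site, as bound by IRF4 or IRF8, and its GGAA can overlap with a PU.1 match. It was found for Cd209a, Cd209d, Clec4a1 and Clec7a, 4 of 8 genes, and in 2.72% of all 32851 windows. PU.1 letters were found for 5 of the 8 genes and in 28.3% of all windows. Those of RUNX were found for 4 genes and in 16.8% of the windows, and those of AP-1 for 3 genes and in 7.81%. Letters for C/EBP were found for 1 gene and in 10.8% of all windows, and those of the interferon element for 0 genes and in 3.44%. Clec4a3 and Clec7a have 2 windows each, and binding was not measured. Of the 4 genes with the composite element, the 2 Cd209 genes were higher in CX3CR1- cells and Clec4a1 was lower, while Clec7a was not called. Their windows are shown because they hold this element, 5′ to 3′ on the strand of the gene with the match in capitals, which is its reverse complement in all 4. They lie at chr8:3748935-3749234 (minus strand) for Cd209a, chr8:3878450-3878749 (minus strand) for Cd209d, chr6:122921598-122921897 (plus strand) for Clec4a1 and, as the first of 2 windows, chr6:129472730-129473029 (minus strand) for Clec7a.
Cd209a: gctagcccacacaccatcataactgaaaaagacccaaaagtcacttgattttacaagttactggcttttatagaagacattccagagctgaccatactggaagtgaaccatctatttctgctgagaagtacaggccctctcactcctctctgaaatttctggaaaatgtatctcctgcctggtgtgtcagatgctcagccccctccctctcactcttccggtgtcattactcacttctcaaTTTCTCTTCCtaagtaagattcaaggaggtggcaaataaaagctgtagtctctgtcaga
Cd209d: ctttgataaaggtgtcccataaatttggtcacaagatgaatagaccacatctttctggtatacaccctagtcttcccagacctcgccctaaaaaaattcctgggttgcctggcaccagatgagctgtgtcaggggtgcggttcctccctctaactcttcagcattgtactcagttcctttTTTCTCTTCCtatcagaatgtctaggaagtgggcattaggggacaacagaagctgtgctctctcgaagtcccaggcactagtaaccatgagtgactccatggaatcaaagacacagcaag
Clec4a1: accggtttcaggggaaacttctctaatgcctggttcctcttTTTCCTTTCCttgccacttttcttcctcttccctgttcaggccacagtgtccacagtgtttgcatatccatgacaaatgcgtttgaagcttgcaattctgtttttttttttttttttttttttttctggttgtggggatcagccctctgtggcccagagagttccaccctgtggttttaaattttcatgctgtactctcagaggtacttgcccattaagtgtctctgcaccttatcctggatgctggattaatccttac
Clec7a: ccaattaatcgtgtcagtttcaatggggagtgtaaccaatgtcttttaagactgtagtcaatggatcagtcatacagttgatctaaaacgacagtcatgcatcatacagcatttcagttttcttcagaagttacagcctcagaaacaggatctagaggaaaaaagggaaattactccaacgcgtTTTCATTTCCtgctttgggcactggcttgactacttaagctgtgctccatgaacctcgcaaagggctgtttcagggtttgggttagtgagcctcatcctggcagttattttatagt
In Cd209a and Cd209d the match had the same letters, TTTCTCTTCC, and began 9 and 70 bases before the start.

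A wider list held 49 further genes of C-type lectins and lectin-like proteins, of which 40 were tested. Of these, 24 were called higher and 6 lower in CX3CR1- cells, against 12.2% and 8.15% of all genes, with a median log2 fold change of 1.89. With a lower limit of 50 for the mean, 13 were called higher and 6 lower. The largest decreases were those of Clec5a, Cd93, Cd72 and Mrc1. Mrc1, the mannose receptor CD206 of tissue macrophages, was at 2932, 3689.8 and 3693 in CX3CR1- libraries and at 15485, 15884 and 15078 in CX3CR1+ libraries (log2 fold change -2.18, standard error 0.14, limma adjusted p = 5.62e-06). Clec5a, an activating receptor that uses the adaptor Tyrobp, was at 1.22, 6.25 and 32.4 in CX3CR1- libraries and at 150, 216 and 159 in CX3CR1+ libraries (log2 fold change -4.42, standard error 0.79, limma adjusted p = 0.00255). The size of this change rested on single libraries, with -5.44 without CX3CR1- replicate 3 and -3.48 without CX3CR1- replicate 1. Ly75, the endocytic receptor DEC-205 of dendritic cells, was among the largest increases, at 89.5, 167 and 138 in CX3CR1- libraries and at 1.07, 0 and 4.904 in CX3CR1+ libraries (limma adjusted p = 1.71e-04). The other largest increases were those of Reg3b and Reg3g, secreted antimicrobial lectins of intestinal epithelium, and of Chodl. Langerin (Cd207) was too low to be tested, with no library above 5.36.

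Of 31 genes of the signalling pathway of these receptors, 7 were called lower and 3 higher in CX3CR1- cells, against 8.15% and 12.2% of all genes, so that the count of higher genes was not above the background. The list had a median log2 fold change of -0.44. After quantile normalization, which moved the median of all genes to -0.15, 4 were called lower and 3 higher. The gamma chain gene Fcer1g was at 1089.9, 1507 and 1121 in CX3CR1- libraries and at 3812, 3761 and 3482 in CX3CR1+ libraries (log2 fold change -1.59, standard error 0.17, limma adjusted p = 8.82e-05). Card9 was at 21.3, 39.8 and 9.88 in CX3CR1- libraries and at 56.5, 69.2 and 74.5 in CX3CR1+ libraries (log2 fold change -1.65, standard error 0.48, limma adjusted p = 0.0313). This call was lost when CX3CR1- replicate 1 or 3 or any CX3CR1+ library was left out, with limma adjusted p between 0.06397 and 0.113. Tyrobp, the adaptor gene Blnk and the inositol phosphatase gene Inpp5d were lower as well, with log2 fold changes of -1.11, -1.45 and -1.23, and so was the exchange factor gene Vav1. Tyrobp, Inpp5d and Vav1 lost their call after quantile normalization, and Tyrobp also without CX3CR1- replicate 3 (log2 fold change -0.97). Syk did not pass the test, with 825, 963 and 639 in CX3CR1- libraries and 797, 879 and 1187 in CX3CR1+ libraries, and neither did the phosphatase gene Ptpn6 (log2 fold change -0.25, limma adjusted p = 0.705). Malt1, the paracaspase that acts with Card9 and Bcl10, was higher in CX3CR1- cells, at 1572 ± 484 against 600.3 ± 161 (SD, n = 3 each). Fgr, a Src family kinase, had a log2 fold change of 3.61, and of 4.22 without CX3CR1+ replicate 3. Cd37, a tetraspanin that binds Dectin-1, had a log2 fold change of 1.04 (limma adjusted p = 0.0283). Its call was lost without CX3CR1- replicate 2 (log2 fold change 0.69) and without any 1 of the 3 CX3CR1+ libraries (limma adjusted p between 0.0707 and 0.103).

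**Figure D4:**
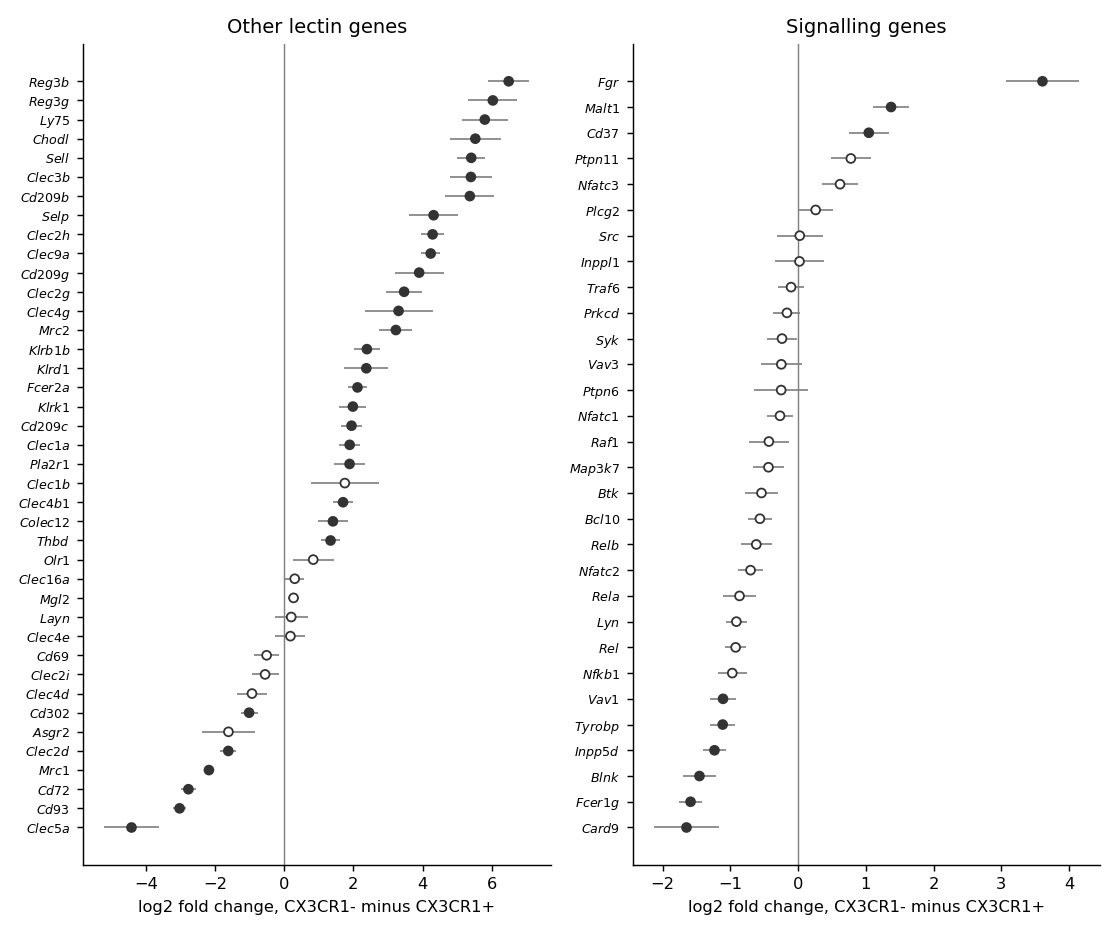
Log2 fold change between CX3CR1- and CX3CR1+ cells with its standard error for the 40 tested genes of the wider lectin list and 30 of the 31 signalling genes, with filled points for called genes. In the lectin list 24 filled points lie to the right and 6 to the left of 0, and in the signalling list 3 and 6.

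Transcripts of other cell types moved with the same contrast, and all counts here are of genes called in CX3CR1- cells, with the range of the list's summed value in CX3CR1- against CX3CR1+ libraries. Of all genes tested, 12.2% were called higher and 8.15% lower. All 9 tested epithelial markers were higher, with sums of 17658 to 30569.6 against 34.1 to 66.7. All 6 fibroblast markers were higher, with sums of 4117 to 12168 against 181 to 316. Of 8 markers of B and plasma cells, 6 were higher, with sums of 2115 to 4704 against 462 to 555. Of 7 endothelial markers, 5 were higher and Prox1 was lower, with sums of 1229 to 1688 against 710 to 871. Of 7 markers of neurons and glia, 6 were tested and 3 were higher, with sums of 146 to 498 against 88.4 to 99.02. Not all of these 3 calls held when single libraries were left out. None of the 6 smooth muscle markers was called, with sums of 918 to 2675 against 1954 to 2745. Of 8 monocyte markers, 7 were tested and 6 were higher, with sums of 8211 to 19959 against 1008 to 1079.8. Most of the monocyte sum in CX3CR1- libraries came from a single gene. Of 8 markers of T and NK cells, 3 were tested, Cd8a was higher and Cd4 lower, with sums of 237 to 306 against 577 to 670, and Trac was at 0 in all CX3CR1+ libraries. Cd4 carried most of this sum in CX3CR1+ libraries, at 506, 540 and 539. Cd8a lost its call after quantile normalization and without CX3CR1- replicate 2 or CX3CR1+ replicate 3. For granulocytes and mast cells only Siglecf and Prg2 of 9 markers were found in the deposited table, with sums of 14.5 to 76.7 against 1.55 to 4.02. The other markers of this list could thus not be judged. Siglecf was higher. Prg2 was too low to be tested, at 10.4, 16.1 and 6.98 in CX3CR1- libraries and at 0 in all CX3CR1+ libraries. The call of Siglecf was lost after quantile normalization (limma adjusted p = 0.112). It was also lost without any 1 library other than CX3CR1- replicate 3 (limma adjusted p between 0.06 and 0.0902). Of 6 markers of type 1 dendritic cells other than Clec9a, 3 were higher, with sums of 2278 to 2618 against 1464 to 1585. Of 4 markers of type 2 dendritic cells other than the lectin genes, Irf4 was higher and Sirpa lower, with sums of 4821 to 7402 against 7398 to 8932. Most of the latter sum came from a gene that was not called. The part of these cell types in the differences of the 10 lectin genes was not tested.

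As a description of likeness, the 6 centred log2 values of Clec7a and Cd209a were compared with those of the other 17802 genes by Euclidean distance. The genes nearest to Clec7a, with their distances, were Rgs2 (0.117), Cklf (0.2195), Gm44247 (0.226), Ahrr (0.227) and Cbx7 (0.233). Rgs2, a regulator of G protein signalling, was at 1297 ± 398 in CX3CR1- libraries, against 2096 ± 93.5 (SD, n = 3 each). Those nearest to Cd209a were Pbld2 (0.489), Gda (0.508), Zfp831 (0.559), Sfn (0.593) and Prr15 (0.598). Gda, which encodes guanine deaminase, was at 1888 ± 388 in CX3CR1- libraries, against 69.7 ± 26.7 (SD, n = 3 each).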

How the data were processed

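RNA was measured in 6 bulk libraries, which were assigned to CX3CR1- or CX3CR1+ cells by the sample titles and numbered 1 to 3 within a population in accession order. The authors pseudoaligned 75 bp single reads to the mouse transcriptome (mm10, GENCODE release M16) with Kallisto and normalized gene-level estimates from tximport between libraries with DESeq2. What they deposited is thus a normalized signal. No count test was run, since 42.6 to 44.7% of the values above 0 were whole multiples of the worth of 1 read (tolerance 0.01).

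Genes with a mean of 10 or more in these libraries (17812 of 26110) entered limma 3.58.1 in R 4.3.3 (lmFit, eBayes with an intensity trend, two-sided) as log2(value + 1), with Benjamini-Hochberg adjustment. A fold change on this scale understates the change of low genes. The script was tested on simulated data. Where one of 23 symbols occurred more than once, its row with the larger mean was used. Positions, lengths and shared 31-mers came from GENCODE release M21 (GRCm38), and promoters from RefSeq. Alternatives were pseudocounts of 0.5 and 10, a lower limit of 50 for the mean or none, quantile normalization, median-of-ratios rescaling, library quality weights, eBayes without the trend, and leaving out each library. The named genes are the 10 receptors, the 4 called genes with the largest change in each direction of each list, 14 lectin and pathway genes chosen by name, and the 5 nearest patterns. All other genes named were picked after their values were seen. The members and lists were chosen with earlier results of these data known. A signalling gene and a marker gene are counted but not reported singly here. Plots were drawn with matplotlib 3.10.9.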

Additional observations from a re-analysis of the deposited data

How the results depend on the processing

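All 10 receptor genes kept their direction under every alternative in which they were tested. In each, 4 were called higher, except with a lower limit of 50 for the mean, where Cd209d was not tested and 3 were. With library quality weights, 4 receptor genes were called lower in place of 2, Clec12a and Clec4n being added, and after quantile normalization Clec4n was added. With each library left out in turn, 4 were called higher each time, and between 2 and 3 lower. The limit of 50 reduced the number of called genes over the whole table from 3628 to 2413 and that in the wider lectin list from 30 to 19, as fewer genes were tested. In the wider list the higher calls fell from 24 to 13, while the lower calls stayed at 6. Leaving out libraries gave 2771 to 3869 called genes over the whole table, 27 to 32 in the wider lectin list, 8 to 11 in the signalling list and 10 in the list of target genes. The share of higher genes among all called was 60.01%, against 50.6% after quantile normalization and 51.1% with the limit of 50. The difference in the ratio of Cd209a to Cd209d turned from 0.075 to -0.23 with a pseudocount of 0.5. With a pseudocount of 10 it was 1.74, and after quantile normalization 0.87. It ranged from -0.28 (without CX3CR1+ replicate 1) through -0.09 (without CX3CR1- replicate 3) to 0.33 with libraries left out. That of Clec7a to Clec12a ranged from -0.086 (without CX3CR1- replicate 2) to 0.54. The cause was not tested. The labels do not state a pairing, but the library numbers in the titles form 3 adjacent pairs of both populations. Deviations from the group means correlated at 0.10, 0.038 and 0.014 within these pairs, over the genes tested, and at -0.083 to 0.04 between the others, and CX3CR1- replicate 3 correlated best with a library outside its pair, so the numbers were not taken to pair the samples. With these pairs as a replicate block, an alternative chosen after seeing the data, 3610 genes were called over the whole table, and every receptor gene kept its direction and its call. Depth limits Cd209d, Cd209b and Ly75 in CX3CR1+ cells, where they lay at a few reads.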

Other observations

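Genes that C-type lectin receptors are known to induce were measured as well, in cells of mice that had received no stimulus. Of 14 such cytokine, chemokine and response genes, 9 were called lower and 1 was called higher in CX3CR1- cells by limma, against 8.15% and 12.2% of all genes, and the median log2 fold change was -2.49. Il10, which encodes an anti-inflammatory cytokine, was at 25.05, 67.95 and 27.9 in CX3CR1- libraries and at 559.6, 1287 and 1110.5 in CX3CR1+ libraries (log2 fold change -4.64). Cxcl2, a neutrophil chemokine gene, was at 2661, 3477 and 2648 against 20424, 31713 and 21051, and the log2 fold changes of the chemokine genes Ccl3 and Ccl4 were -4.85 and -4.45. Il6 was the gene called higher, at 139, 331 and 217 in CX3CR1- libraries and at 13.9, 31.3 and 20.7 in CX3CR1+ libraries (log2 fold change 3.31). Il23a, Il12b, Egr2 and Egr3 did not pass the test, with log2 fold changes of -0.40, 1.14, -0.12 and 0.24.

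In the wider lectin list, Reg3b was at 92.9, 103 and 73.3 and Reg3g at 68.2, 112 and 35.1 in the CX3CR1- libraries, and both were listed at 0 in all 3 CX3CR1+ libraries. Chodl was at 124, 47.6 and 355 against 4.36, 0.772 and 1.33. Cd93, found on myeloid and endothelial cells, was lower in CX3CR1- cells, at 560.2 ± 144 against 4481 ± 334 (SD, n = 3 each). The inhibitory receptor gene Cd72 was lower too, at 76.2 ± 13.4 against 521 ± 0.582 (SD, n = 3 each).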
